A study of Mus musculus with 18 samples.

Results

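Livers from mice on the diet labelled CDAHFD were compared between GalNAc-Mdm2ASO, an antisense oligonucleotide (ASO) against the transcript of Mdm2, and GalNAc-conASO, a control oligonucleotide. The control samples are labelled WT and the Mdm2 ASO samples MDM2 knockdown, and no other allele or agent is named for either group. The members were taken by diet and treatment label alone: 5 control libraries (replicates 1 to 5) and 5 Mdm2 ASO libraries (replicates 6 to 10), which are 10 of the 18 samples of the series. The other 8 samples carry the same oligonucleotides on a diet labelled HFHC, and their values are given only where the response on CDAHFD is set against them. Both groups carry a GalNAc oligonucleotide and the same diet, so every value below is a difference between oligonucleotides on CDAHFD with no untreated or normal-diet liver beside it. The sequences of the oligonucleotides, dose, length of treatment, age, sex and hour of sampling are not given in the sources used here, and the fall of Mdm2 was measured in whole liver, not in single cell types. Every gene of the table was a member: of 33235 genes, 16803 reached a normalised read count of at least 1 in at least 5 libraries and were tested, and 16432 lay below that filter and were not.

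Mdm2 is the ubiquitin ligase that binds p53 (gene Trp53), blocks it and marks it for degradation, and its own gene is a target of p53, so that the pair forms a feedback loop. When p53 is released it switches on genes of cell cycle arrest, DNA repair and cell death, of which Cdkn1a is the best known. GalNAc is a sugar taken up by the asialoglycoprotein receptor of hepatocytes, which directs the oligonucleotide to these cells. CDAHFD is rich in fat, lacks choline and supplies protein as free amino acids, which hinders the export of fat from hepatocytes and brings about steatohepatitis with fibrosis in mice.

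Promoter sequences are shown for genes of the groups that the results turn on, each with the short element that was searched for in its group. They were searched in RefSeq windows on GRCm38.p6, 250 bases before to 50 after each start, on both strands, for 27025 genes. The cell cycle homology region (CHR, letters TTTGAA) and the CCAAT box are known elements of genes expressed late in the cell cycle. TTTGAA occurred in the windows of 20.2% of all genes and of 14 of the 19 tested cell cycle and mitosis genes that had a window (73.7%), namely 7 of the 9 that fell and 7 of the 10 that did not pass the test. CCAAT occurred in 41.1% of all genes and in 16 of these 19 (84.2%). Of 18 tested DNA replication genes with a window, 3 held TTTGAA (16.7%) and 12 held CCAAT (66.7%). CCAAT was also in 14 of 19 tested clock genes with a window (73.7%), so a high share of it was not particular to mitotic genes. The following upstream stretches have both elements in capitals (CCAAT reads ATTGG where it lies on the other strand) and belong to genes that fell.
Cdc20, chr4:118437344-118437463, minus strand: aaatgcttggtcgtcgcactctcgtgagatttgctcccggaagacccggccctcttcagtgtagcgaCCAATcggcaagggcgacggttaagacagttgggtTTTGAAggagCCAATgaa
Ccnb2, chr9:70421603-70421722, minus strand: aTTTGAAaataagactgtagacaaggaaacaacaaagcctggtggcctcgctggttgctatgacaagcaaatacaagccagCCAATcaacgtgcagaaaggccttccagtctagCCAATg
Prc1, chr7:80294356-80294475, plus strand: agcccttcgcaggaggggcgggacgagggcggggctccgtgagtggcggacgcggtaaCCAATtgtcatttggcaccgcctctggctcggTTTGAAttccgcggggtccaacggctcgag
Mki67, chr7:135716460-135716579, minus strand: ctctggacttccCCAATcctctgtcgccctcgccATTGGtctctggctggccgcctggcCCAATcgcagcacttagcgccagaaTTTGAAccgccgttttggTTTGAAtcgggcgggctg

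The interferon-stimulated response element, searched as GAAANNGAAA on both strands, was found in 3.99% of all genes and in 23 of the 35 tested interferon-stimulated and GTPase genes with a window (65.7%): 14 of the 20 that fell (70%) and 9 of the 15 that did not pass (60%). The stretches below show the match in capitals, in the reverse orientation where it reads TTTC first, for genes that fell. Overlapping matches in Irgm1 run together, and the call of Irgm1 was lost without control replicate 2 or 4.
Ifit1, chr19:34640770-34640829, plus strand: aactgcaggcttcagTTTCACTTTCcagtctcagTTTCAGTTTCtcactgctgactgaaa
Rsad2, chr12:26456538-26456597, minus strand: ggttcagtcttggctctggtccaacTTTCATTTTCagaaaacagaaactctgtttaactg
Irgm1, chr11:48871421-48871480, minus strand: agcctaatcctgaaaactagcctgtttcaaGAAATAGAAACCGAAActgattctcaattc
Tgtp1, chr11:48992289-48992348, minus strand: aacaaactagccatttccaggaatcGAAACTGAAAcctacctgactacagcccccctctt

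Of the p53 target lists, 61 tested genes had a window, and 1 of them, Cdkn1a, held a p53 element (2 half-sites at most 13 bases apart), which was found in 20 of all 27025 genes (0.074%). The E-box CACGTG, the element bound by the clock factors BMAL1 and CLOCK, was found in 8.09% of all genes and in 7 of 19 tested clock genes (36.8%), among them Ciart, which holds 2 copies. By call it was in 3 of the 7 clock genes with a window that rose, 1 of the 3 that fell and 3 of the 9 that did not pass. The capitals mark these elements in the stretches below. A match is a description of letters in a window, and no match says only that these letters are not in the window.
Cdkn1a, chr17:29090892-29090951, plus strand: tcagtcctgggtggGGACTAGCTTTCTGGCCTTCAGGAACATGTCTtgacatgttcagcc
Ciart, chr3:95882247-95882306, minus strand: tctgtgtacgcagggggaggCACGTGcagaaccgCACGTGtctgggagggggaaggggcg

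In the fit over all 16803 tested genes (limma on log2 of the normalised count plus 0.5, Benjamini-Hochberg adjusted p under 0.05), 2181 genes passed, which is 13.0% of those tested: 1028 rose (6.12%) and 1153 fell (6.86%). A rise of at least 2-fold was seen for 212 of them and a fall of at least 2-fold for 182. The median log2 fold change of all tested genes was -0.00206, and groups did not overlap for 1451 of the called genes (66.5%) and for 10.6% of the tested genes. The first principal component (21.5% of the variance) placed all 5 control libraries on one side and all 5 Mdm2 ASO libraries on the other. The count of called genes leaned on single libraries: it was 1232 without control replicate 2 and 1426 without Mdm2 ASO replicate 8, and 1115 genes passed in all 10 fits that left out a library. Genes named below passed in all 10 unless a sentence says otherwise. Counts of gene lists below are to be read against the 6.12% of all tested genes that rose and the 6.86% that fell. The recovered reads ran from 22.4 to 31.5 M per library. The labels do not say whether the libraries of a group came from separate animals, so the p-values measure the spread between these samples.

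Mdm2, the targeted transcript, was measured first. Its normalised count was 1443, 1572, 1516, 1649.9 and 1644 in the control libraries and 861, 566, 646, 564 and 598 in the Mdm2 ASO libraries. All Mdm2 ASO libraries lay below all control libraries, with replicate 6 the least reduced. Mean counts fell from 1565 ± 87.7 to 647 ± 124 (SD, n = 5 each), with log2 fold change -1.29 ± 0.11 SE, adjusted p = 3.1e-05, and an exact two-sided permutation test over the 252 regroupings gave p = 0.00794, the smallest these groups can give. Mdm4, the close relative of Mdm2 that also restrains p53, rose (log2 fold change 0.51 ± 0.10 SE, adjusted p = 0.00545). Trp53 itself had a log2 difference of -0.08 (adjusted p = 0.568) and did not pass. Of the 14 tested genes of the list of Mdm2 and its p53 circuit, 4 rose and 1 fell, with a median of 0.08. Besides Mdm4 the genes that rose were Cdkn1a, the inhibitor of cyclin-dependent kinases, Ccng1, an atypical cyclin, and Pidd1, which encodes a death domain protein that can activate caspase 2. Cdkn1a was at 2918, 2983, 2312, 2232 and 2597 in the control libraries and 6658, 5177, 3951, 4171 and 3053 in the Mdm2 ASO libraries. The groups did not overlap, but Mdm2 ASO replicate 10 came within a short distance of the highest control. Cdkn1a rose with a log2 fold change of 0.78 (adjusted p = 0.00873), Ccng1 with 0.83 (adjusted p = 0.00192) and Pidd1 with 1.21 (adjusted p = 1.1e-04).

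Among p53 targets of arrest and DNA repair, 17 of 36 tested genes rose and 1 fell (median log2 fold change 0.45), against 6.12% and 6.86% of all genes. Of the rises, 12 passed in every leave-one-out fit. Psrc1, which encodes a spindle-associated protein induced by p53, was at 47.2, 94.3, 73.4, 129.7 and 63.6 in the control libraries and 799, 534, 669, 481 and 362 in the Mdm2 ASO libraries. Phlda3, which encodes an inhibitor of AKT, was at 246, 292, 478, 334 and 308 in the control libraries and 1339, 1249, 907, 1137 and 663 in the Mdm2 ASO libraries. For both genes every Mdm2 ASO library was above every control library. Psrc1 rose from 81.6 ± 31.8 to 569 ± 169 on average (log2 fold change 2.83 ± 0.26 SE, adjusted p = 3.9e-05) and Phlda3 from 331 ± 87.9 to 1059 ± 274 on average (log2 fold change 1.67 ± 0.20 SE, adjusted p = 2.6e-04). Eda2r, the receptor of ectodysplasin A2, rose with a log2 fold change of 1.50 (adjusted p = 4.2e-04), Gtse1, a protein that shuttles p53 out of the nucleus in late cell cycle, with 1.48 (adjusted p = 0.00181), and Zmat3, an RNA-binding p53 target, with 1.01 (adjusted p = 8.9e-04). Mgmt, which removes alkyl groups from guanine, and Ercc5, the nuclease of nucleotide excision repair, rose with log2 fold changes of 0.82 (adjusted p = 2.0e-04) and 0.71 (adjusted p = 5.4e-04). Gadd45g, a stress-induced inhibitor of growth, rose with a log2 fold change of 1.25 (adjusted p = 0.0137). The member that fell was Ckap2, a microtubule-associated protein of dividing cells (log2 fold change -1.65, adjusted p = 0.00516), and 2 members fell without control replicate 3. Other well-known targets did not pass: Sesn2, which restrains growth signalling, had a log2 difference of 0.43 (adjusted p = 0.0875) and Gdf15, a secreted stress cytokine, of 0.44 (adjusted p = 0.264).

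Of 20 tested p53 targets of cell death, 4 rose and 1 fell, with a median log2 fold change of 0.01. Bax, a pore-forming protein of the outer mitochondrial membrane, was at 996, 1020.1, 1396, 1059 and 1301 in the control libraries and 1899, 2347, 1866, 1610.1 and 1798 in the Mdm2 ASO libraries. Tnfrsf10b, the mouse death receptor for TRAIL, was at 54.7, 64.7, 126, 81.4 and 100 in the control libraries and 284, 204, 262, 163 and 179 in the Mdm2 ASO libraries. No Mdm2 ASO library overlapped the controls in either gene, and the log2 fold changes were 0.72 (adjusted p = 0.00179) and 1.38 (adjusted p = 0.00203). Siva1 and Pdrg1 rose with log2 fold changes of 0.61 (adjusted p = 0.0013) and 0.45 (adjusted p = 0.00612). Bbc3 and Pmaip1, which encode the BH3-only proteins PUMA and NOXA, and Fas, a death receptor, did not pass, with log2 differences of -0.27 (adjusted p = 0.338), -0.18 (adjusted p = 0.793) and 0.04 (adjusted p = 0.85). The member that fell was Mlkl, the effector of necroptosis, at -0.50 (adjusted p = 0.0278), a call that was lost without any one of 5 libraries (control replicates 2, 4 and 5 and Mdm2 ASO replicates 7 and 9).

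**Figure D1:**
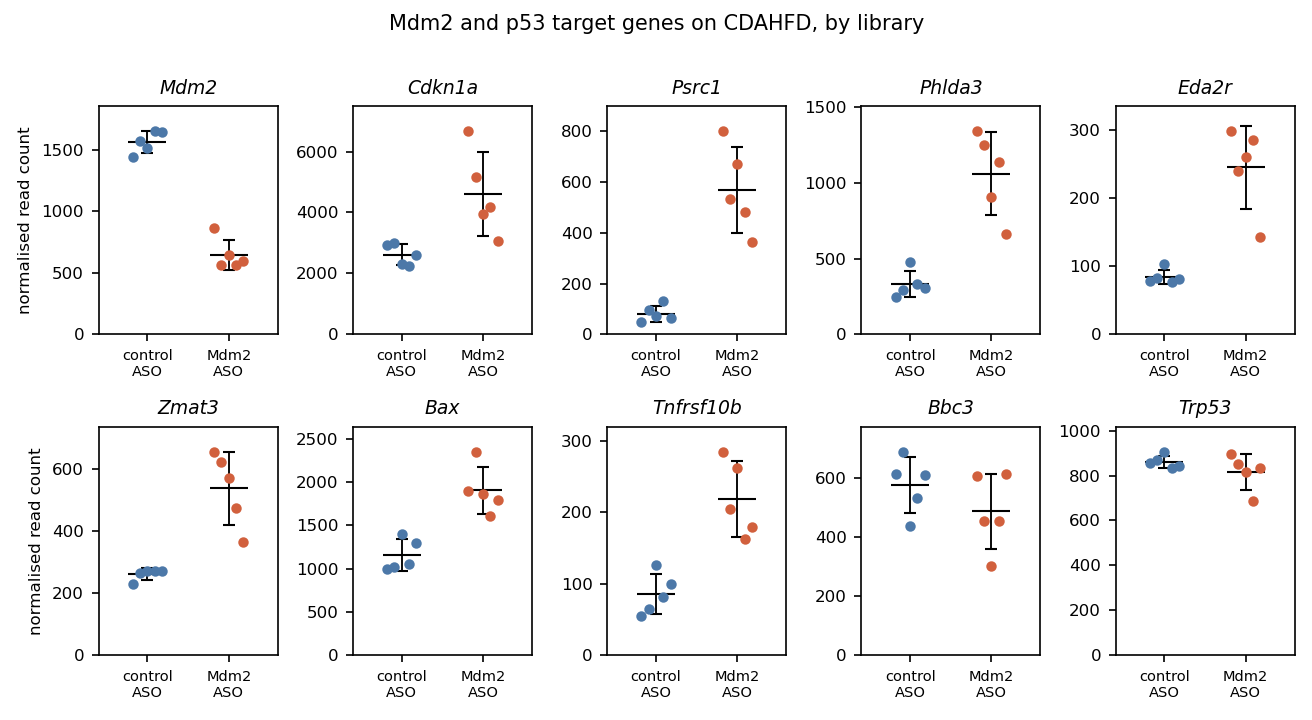
Normalised read counts (vertical axis, from 0) of Mdm2, p53 targets and Trp53 in each library of the control ASO (blue) and Mdm2 ASO (orange) groups on CDAHFD, with the group mean and SD in black (n = 5 each). Mdm2 lies lower in every Mdm2 ASO library and Cdkn1a, Psrc1, Phlda3, Eda2r, Zmat3, Bax and Tnfrsf10b lie higher, while Bbc3 and Trp53 overlap.

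Genes of cell division fell. Of 24 tested genes of cell cycle and mitosis, 14 fell and 0 rose, all 24 had a negative log2 fold change, and the median was -1.20. With edgeR and DESeq2 on the recovered reads 17 and 21 fell and again 0 rose. Without control replicate 4 the count that fell was 9, and 9 genes fell in every leave-one-out fit. Cdc20, the activator of the anaphase-promoting complex whose promoter is printed above, was at 150.2, 267, 329, 473 and 110.3 in the control libraries and 49.2, 81.6, 36.3, 39.2 and 73.5 in the Mdm2 ASO libraries. Ccnb1, which encodes cyclin B1, was at 84.8, 113, 144, 208 and 44.9 in the control libraries and 32.5, 27.2, 13.6, 20.1 and 33.9 in the Mdm2 ASO libraries. Mki67, the proliferation marker Ki-67, was at 305, 382, 473, 493 and 259.9 in the control libraries and 179, 172, 74.8, 142 and 305 in the Mdm2 ASO libraries. Control replicate 4 was the highest and control replicate 5 the lowest of the controls for each of these genes, and Mdm2 ASO replicate 8 was the lowest library. The groups did not overlap for Cdc20 and Ccnb1, and for Mki67 Mdm2 ASO replicate 10 lay among the lower controls. The log2 fold changes were -2.13 (adjusted p = 0.00211), -2.10 (adjusted p = 0.00301) and -1.23 (adjusted p = 0.0151). Tpx2 and Prc1, which build the spindle, fell with log2 fold changes of -2.20 (adjusted p = 0.009) and -1.63 (adjusted p = 0.00557), and Foxm1, the transcription factor of late cell cycle genes, with -1.20 (adjusted p = 0.0168). Nuf2, Hmmr and Kif4, also proteins of the spindle or kinetochore, were among the 15 largest falls without overlap at a mean normalised count of at least 20 (-2.25, -2.16 and -2.03). Cdk1, the mitotic kinase, fell with a log2 fold change of -0.93 (adjusted p = 0.0264), but the call was lost without control replicate 4 or Mdm2 ASO replicate 8 or 9, and Top2a did not pass (log2 fold change -0.91, adjusted p = 0.0593).

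Of 24 tested DNA replication genes 2 fell and 0 rose (median -0.11), and 4 fell without Mdm2 ASO replicate 9. Mcm2, a subunit of the replicative helicase, was at 162, 163, 141, 168 and 143 in the control libraries and 79.6, 62.8, 91.8, 101 and 103 in the Mdm2 ASO libraries, and its groups did not overlap (log2 fold change -0.84 ± 0.16 SE, adjusted p = 0.00482). E2f8, a repressor in the E2F family, fell with a log2 fold change of -1.20 (adjusted p = 4.2e-04). Pcna and Ccnd1, which encode the sliding clamp and cyclin D1, did not pass, with log2 differences of -0.03 (adjusted p = 0.872) and -0.42 (adjusted p = 0.348). In bulk liver, fewer cells of a type and less RNA per cell cannot be told apart, here or in any group below. Counts of the mitotic genes were low, and the sum of the list ran from 1634 to 4238 in the control libraries and from 684.8 to 1549 in the Mdm2 ASO libraries.

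Interferon-responsive genes were lower on the Mdm2 ASO. Of 37 tested interferon-stimulated genes 16 fell and 0 rose (median -0.34), and of 18 interferon-induced GTPases 9 fell and 0 rose (median -0.58). In both lists edgeR and DESeq2 also called 0 rises. These counts depended on 2 control libraries: without control replicate 2 they were 8 and 3, and without control replicate 4 they were 10 and 4. Rsad2, which encodes the antiviral enzyme viperin, was at 515, 498, 507, 804 and 586 in the control libraries and 214, 178, 285, 208 and 365 in the Mdm2 ASO libraries. Tgtp1, a GTPase that acts on the vacuoles of intracellular parasites, was at 76.2, 156, 101, 198 and 107 in the control libraries and 45.0, 50.2, 44.2, 61.3 and 29.4 in the Mdm2 ASO libraries. Cmpk2, a mitochondrial nucleotide kinase induced by interferon, was at 267, 314, 303, 332 and 253 in the control libraries and 157, 133, 145, 156 and 165 in the Mdm2 ASO libraries. All Mdm2 ASO libraries were below all controls in each of these genes. Rsad2 fell with a log2 fold change of -1.24 (adjusted p = 0.00126), Tgtp1 with -1.42 (adjusted p = 0.00423) and Cmpk2 with -0.95 (adjusted p = 4.1e-04). Ifit2, an RNA-binding effector, fell with a log2 fold change of -1.20 (adjusted p = 0.00274), its relative Ifit1 with -0.74 (adjusted p = 0.0156), the nucleic acid sensor Zbp1 with -0.59 (adjusted p = 0.00204) and the deubiquitinase Usp18 with -0.81 (adjusted p = 0.00832). Ifi47 and Gbp6, further GTPases, fell with log2 fold changes of -0.72 (adjusted p = 0.00211) and -0.64 (adjusted p = 0.012). The groups overlapped for Ifit1, Usp18 and Gbp6, in each of which the lowest control library or the highest Mdm2 ASO library crossed over. The Tgtp, Ifit and Gbp genes have near-identical copies, so that reads may be split between them. Isg15, the ubiquitin-like modifier, did not pass (log2 fold change -0.22, adjusted p = 0.29).

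**Figure D2:**
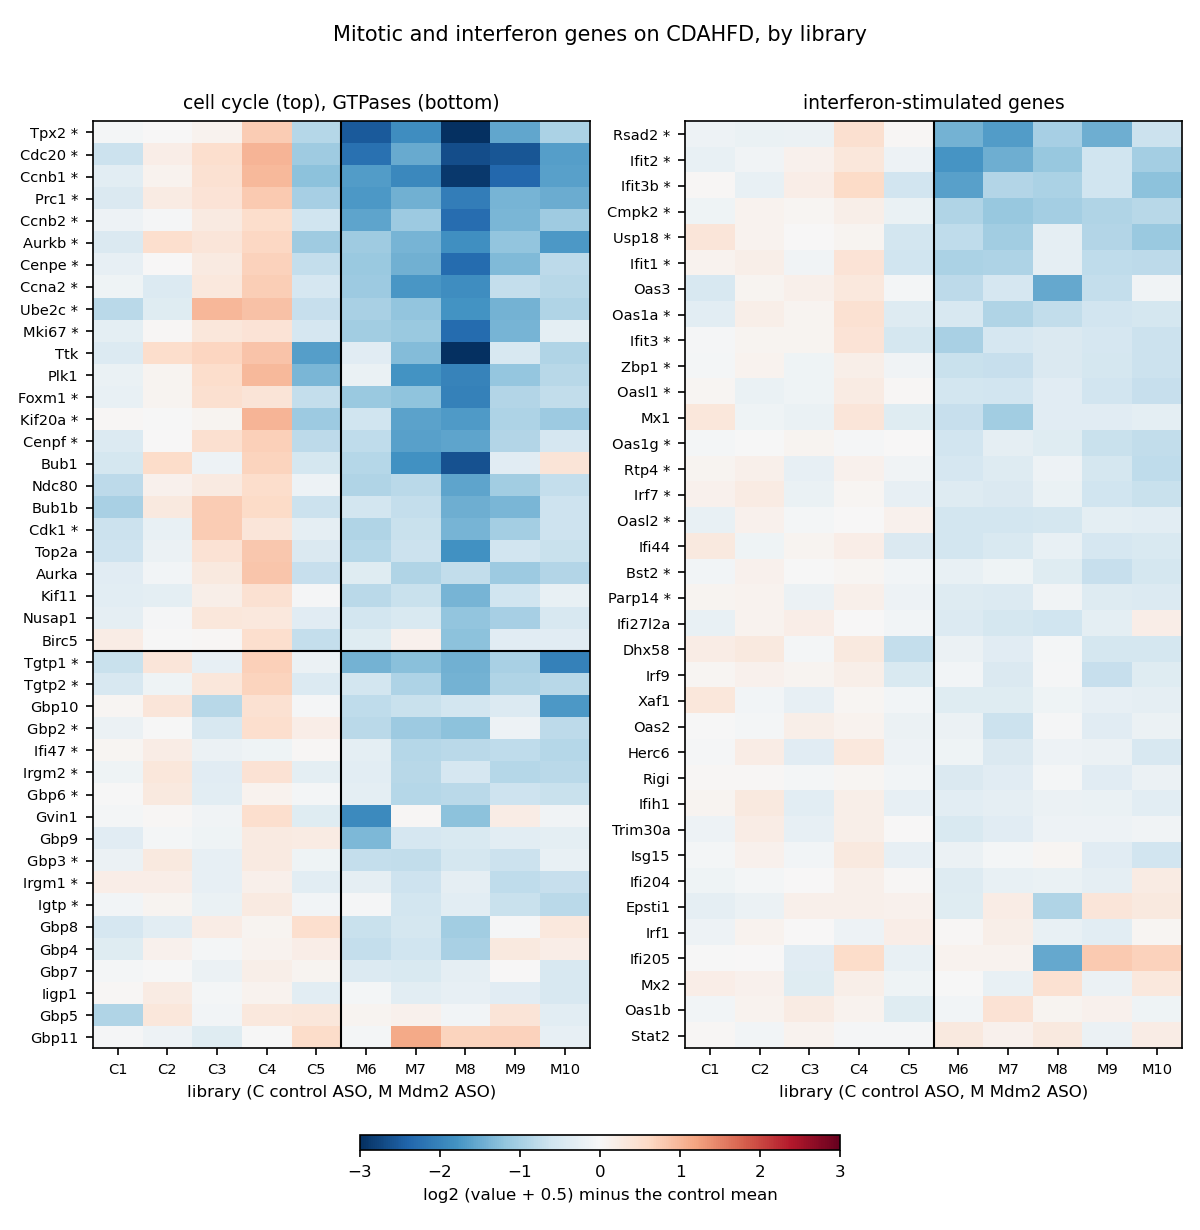
Difference of log2(normalised count + 0.5) from the control mean (colour scale from -3 to 3) for tested genes of 3 lists (rows, sorted by fold change within a list) in the 10 libraries (columns, C1 to C5 control ASO, M6 to M10 Mdm2 ASO); an asterisk marks the genes that passed the test. Blue cells gather in the Mdm2 ASO columns, deepest in M8 for mitotic genes, while control columns C4 and C5 lie above and below the control mean.

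Some chemokines and cytokines were lower too. Of 29 tested chemokines and receptors 5 fell and 0 rose (median -0.26), and the count was 3 without control replicate 4 or Mdm2 ASO replicate 8. Ccl2, the chemokine that draws monocytes, was at 133, 171, 204, 179.7 and 326 in the control libraries and 47.1, 115, 28.3, 124 and 91.6 in the Mdm2 ASO libraries. Cxcl10, an interferon-induced chemokine, was at 247, 225, 259.6, 301 and 337 in the control libraries and 56.6, 142, 136, 175 and 190.0 in the Mdm2 ASO libraries. Mdm2 ASO libraries lay below the controls in both, although replicates 7 and 9 for Ccl2 came near the lowest control. The log2 fold changes were -1.45 (adjusted p = 0.0195) for Ccl2, -1.06 (adjusted p = 0.0186) for Cxcl10 and -0.87 (adjusted p = 6.5e-04) for Ccl9. Icam1, the adhesion molecule for leukocytes, fell with a log2 fold change of -0.79 (adjusted p = 0.00348) and Csf1, the growth factor of macrophages, with -0.68 (adjusted p = 0.0109), 2 of the 4 genes that fell among 38 tested cytokine, inflammasome and Toll-like receptor genes. That last count stands beside 6.86% of all tested genes that fell. It was 8 without Mdm2 ASO replicate 10 and 2 without control replicate 2 or Mdm2 ASO replicate 6 or 8. The cytokines Tnf and Il1b did not pass, with log2 differences of -0.84 (adjusted p = 0.291) and -0.03 (adjusted p = 0.961).

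Few marker genes of the cell types that could carry these transcripts passed, although some lists leaned to one side. For T and NK cells 0 of 28 tested markers passed with limma (1 at an unadjusted p under 0.05, and 0 with edgeR or DESeq2; median 0.01), and their summed count ran from 427 to 1094 in the controls and from 476.2 to 1242 in the Mdm2 ASO libraries. For neutrophils 0 of 18 passed with limma (likewise 1 unadjusted, and 0 with edgeR or DESeq2; median -0.11; 1 fell without Mdm2 ASO replicate 7), and for monocytes and dendritic cells 1 of 25, the gene Eno3, rose (median -0.01; 1 fell without Mdm2 ASO replicate 10). Of 18 Kupffer cell markers 1 rose and 1 fell (median -0.22), and their summed count ran from 15570 to 17770 in the controls and from 13770 to 16700 in the Mdm2 ASO libraries. The Kupffer cell rise was lost without control replicate 5 or Mdm2 ASO replicates 6, 8 or 9, 2 rose without control replicate 2 or Mdm2 ASO replicate 10, and 2 fell without control replicate 1 or Mdm2 ASO replicate 7. Clec4f, their defining marker in mouse, did not pass (log2 fold change -0.06, adjusted p = 0.881), and Cd5l, a secreted macrophage protein, fell (log2 fold change -0.84, adjusted p = 0.0174; lost without control replicate 2). Of 21 markers of lipid-associated macrophages 4 fell (median -0.49), namely Cd9, Lpl, Plin2 and Cd36, of which hepatocytes also express Plin2 and Cd36; the call of Lpl was lost without any one of 7 libraries. Without Mdm2 ASO replicate 10 the count was 12, and without control replicate 3, 1 rose. The summed count of the list ran from 91250 to 102100 in the controls and from 63540 to 97810 in the Mdm2 ASO libraries. The defining markers Trem2 and Gpnmb of these macrophages did not pass (log2 fold changes -0.53 and -0.49, adjusted p = 0.243 and 0.39), and Mdm2 ASO replicate 10 lay above every other library of either group in both. Of 20 markers of sinusoidal endothelial cells 18 had a positive log2 fold change (median 0.31) and 1 rose, against 5 with DESeq2. That count was 5 without control replicate 3, 4 without control replicate 5, 2 without Mdm2 ASO replicates 6 or 7 and 0 without control replicates 2 or 4 or Mdm2 ASO replicates 9 or 10. Their summed count ran from 5739 to 8216 in the controls and from 7152 to 11540 in the Mdm2 ASO libraries. Of 20 markers of B and plasma cells 17 were positive (median 0.43) and 1 rose, with 2 without Mdm2 ASO replicate 6 and 0 without control replicates 1 or 2 or Mdm2 ASO replicates 7, 9 or 10. Of 29 Fc and inhibitory receptors 21 were negative (median -0.38) and 2 fell, against 6 with DESeq2. The falls were 7 without control replicate 1 or Mdm2 ASO replicate 10, 1 without control replicate 5 or Mdm2 ASO replicate 9, and 0 without any one of control replicates 2 to 4 and Mdm2 ASO replicates 6 to 8. The part of changing cell numbers in the interferon and chemokine results was not tested.

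Few fibrosis genes passed. Of 34 tested fibrosis and collagen genes 0 rose and 2 fell (median -0.06), namely Col4a1, a basement membrane collagen (log2 fold change -0.63, adjusted p = 0.0088), and Mmp14, a membrane metalloprotease whose call was lost without any one of 7 libraries. Without control replicate 3, 2 of the list rose, and without control replicate 5, 1 rose. Col1a1, the main fibrillar collagen, was at 1349.6, 1514, 1742, 1342 and 1640.5 in the control libraries and 903, 1034, 824, 1867 and 1776 in the Mdm2 ASO libraries, which overlapped. Its log2 difference was -0.32 (adjusted p = 0.323), and those of Timp1, an inhibitor of metalloproteases, and Acta2, a marker of activated stellate cells, were -0.05 (adjusted p = 0.924) and -0.16 (adjusted p = 0.861). In Col1a1 the Mdm2 ASO libraries split, with replicates 9 and 10 above every control and replicates 6, 7 and 8 below every control. Of the ductular markers 0 of 20 passed with limma, edgeR or DESeq2, 9 had an unadjusted limma p under 0.05, and the median was 0.58. Krt19, a keratin of bile ducts, was at 53.6, 22.2, 136, 20.9 and 106 in the control libraries and 131, 114, 112, 115 and 153 in the Mdm2 ASO libraries. Its log2 difference was 1.26 (adjusted p = 0.0748), control replicate 3 lay within the Mdm2 ASO range and control replicate 5 just below it, and the other controls were lower. Without control replicate 3, 7 ductular markers rose, and without control replicate 5, 2 rose, while 1 fell without control replicate 4. Their summed count ran from 7686 to 16970 in the controls and from 11420 to 16930 in the Mdm2 ASO libraries. Among platelet markers 3 of 11 rose, including Itga2b and Gp1ba, receptor subunits of platelets (log2 fold changes 0.82 and 1.41, adjusted p = 0.00168 and 0.0129).

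**Figure D3:**
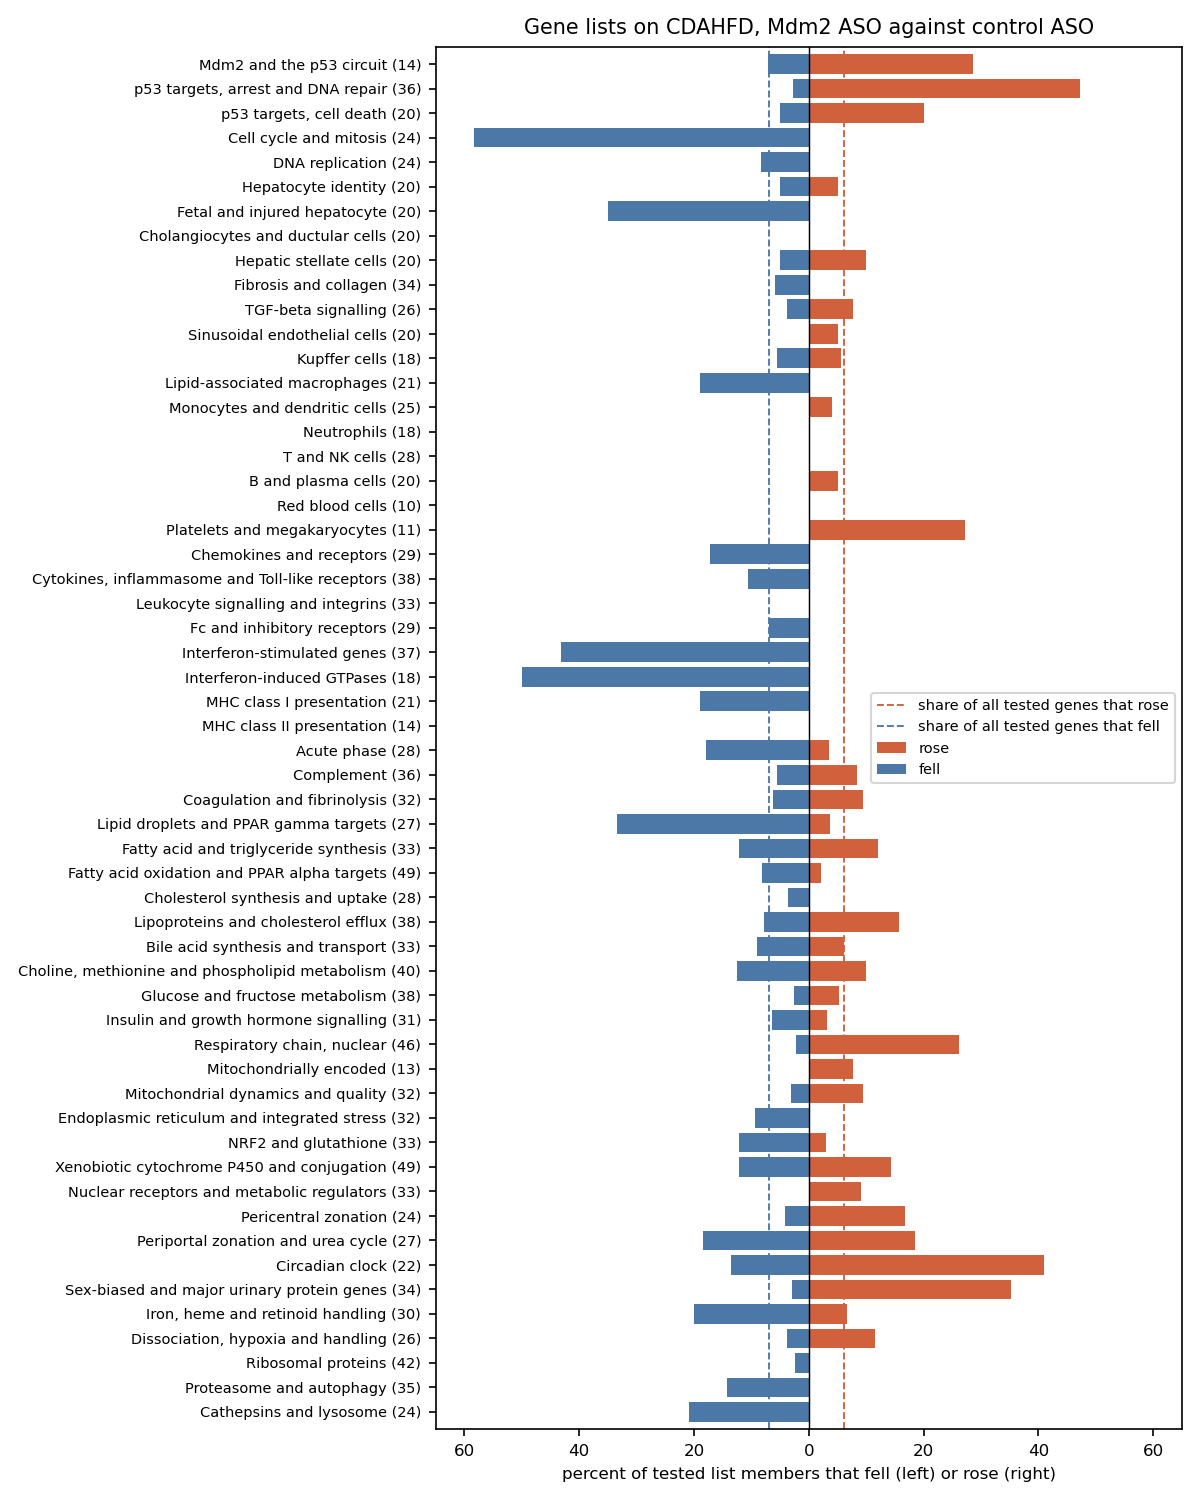
Share of the tested members of each gene list with at least 10 tested members (number in parentheses) that rose (orange, right) or fell (blue, left) on the Mdm2 ASO on CDAHFD, in percent; dashed lines mark the shares of all tested genes, 6.12% and 6.86%. Cell cycle, interferon, lipid droplet and injured hepatocyte lists reach to the left, and p53 target, clock, sex-biased and respiratory chain lists to the right.

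Most hepatocyte identity genes did not pass, and part of the genes of injured hepatocytes fell. Of 20 hepatocyte identity genes 1 rose and 1 fell (median -0.04), and 2 fell without control replicate 3. Alb and Hnf4a, albumin and a master regulator of hepatocytes, did not pass (log2 fold changes -0.14 and -0.17, adjusted p = 0.847 and 0.217), and the receptor subunits Asgr1 and Asgr2 did not pass either (log2 fold changes 0.28 and 0.27, adjusted p = 0.0696 and 0.0901), although the groups did not overlap for either subunit. Prox1, a homeobox factor, fell with a log2 fold change of -0.44 (adjusted p = 0.00149) and Onecut1, a liver transcription factor, rose with a log2 fold change of 1.48 (adjusted p = 0.0128). Of 20 fetal and injured hepatocyte genes 7 fell and 0 rose (median -0.48), and 1 rose without control replicate 3. Lcn2, which encodes lipocalin 2, was at 9371, 9979.7, 11470.0, 10283 and 14599 in the control libraries and 4412, 6999, 2901, 7626 and 6831 in the Mdm2 ASO libraries. Anxa5, a calcium-dependent binder of phospholipids, was at 9057, 9473, 7170.3, 7686 and 9476 in the control libraries and 3899, 3892, 4325, 4992 and 4537 in the Mdm2 ASO libraries. Neither gene's groups overlapped. The log2 fold changes were -1.02 (adjusted p = 0.00984) and -0.98 (adjusted p = 1.3e-04), with -0.77 (adjusted p = 0.00421) for Anxa2, a relative of Anxa5, and -1.11 (adjusted p = 0.00143) for Ly6d, a GPI-anchored surface protein. Of the 7 falls, 5 passed in every leave-one-out fit.

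Secreted plasma proteins fell in part. Of 28 acute phase genes 5 fell and 1 rose (median -0.02). The rise was lost without control replicates 2, 3 or 4 or Mdm2 ASO replicates 7, 8 or 10 and with DESeq2. Cp, the copper carrier ceruloplasmin, was at 29875, 33591, 29989, 29864 and 29980.5 in the control libraries and 17803, 17387, 14647, 18167 and 18937 in the Mdm2 ASO libraries, with groups far apart. Hpx, the heme carrier hemopexin, was at 157614, 179940.0, 130763, 165790.0 and 153416 in the control libraries and 97145, 110813, 91814, 88554 and 102970.0 in the Mdm2 ASO libraries, again without overlap. Cp fell with a log2 fold change of -0.82 (adjusted p = 2.7e-04), Hpx with -0.68 (adjusted p = 0.0121), Fga, the alpha chain of fibrinogen, with -0.77 (adjusted p = 0.0108) and Lbp, the binder of lipopolysaccharide, with -0.79 (adjusted p = 0.00163). Saa1, the classic acute phase protein, did not pass (log2 fold change 0.20, adjusted p = 0.55). Mbl2, a lectin of the complement system, rose from 3978 ± 805 to 9580.2 ± 2308 (SD, n = 5 each; log2 fold change 1.26 ± 0.18 SE, adjusted p = 8.1e-04). Genes of the lysosome fell as well: 5 of 24 tested, 0 rose (median -0.21), including Lipa, the lysosomal acid lipase (log2 fold change -0.88, adjusted p = 9.9e-04), Grn, progranulin (log2 fold change -0.51, adjusted p = 0.00179), and Lamp1, a membrane protein of lysosomes (log2 fold change -0.55, adjusted p = 0.00949). The count was 8 without control replicate 3 or Mdm2 ASO replicate 10. Sqstm1, the autophagy receptor p62, fell with a log2 fold change of -0.60 (adjusted p = 0.00121).

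Part of the genes that coat or feed the lipid droplet fell. Of 27 tested genes of lipid droplets and PPAR gamma targets 9 fell, 1 rose and 17 did not pass (median -0.27), and 2 rose without control replicate 1 or Mdm2 ASO replicate 8. Plin2, the main droplet coat protein of hepatocytes, was at 35740.2, 43577, 31345, 33757 and 28844 in the control libraries and 25208, 16599.6, 20232, 19336 and 21553 in the Mdm2 ASO libraries. Cd36, which takes up fatty acids, was at 4565, 5751, 5124, 5843 and 4790.5 in the control libraries and 2438, 2553, 2525, 3760.0 and 3391 in the Mdm2 ASO libraries. Hsd17b13, a droplet enzyme of hepatocytes, was at 18307, 19004, 13332, 17853 and 17329.9 in the control libraries and 9582, 10699, 11407, 11211 and 10237 in the Mdm2 ASO libraries. No Mdm2 ASO library reached the lowest control in any of these genes. Plin2 fell with a log2 fold change of -0.75 (adjusted p = 0.00324), Cd36 with -0.85 (adjusted p = 0.00115) and Hsd17b13 with -0.68 (adjusted p = 0.00134), with Plin4 and Plin5 at -0.86 (adjusted p = 0.0137) and -0.64 (adjusted p = 0.00191). Bscl2, which encodes seipin, the protein that shapes new droplets, rose with a log2 fold change of 0.41 (adjusted p = 0.0187).

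Genes of fatty acid and triglyceride synthesis moved in both directions. Of 33 tested genes 4 rose and 4 fell (median -0.04), with 2 rises and 2 falls in every leave-one-out fit. The rises were 2 without control replicates 2, 3 or 4 or any of Mdm2 ASO replicates 7 to 10, and the falls were 2 without control replicates 2 or 4 or Mdm2 ASO replicates 6 or 8 and 8 without control replicate 5. Lpin1, the phosphatidate phosphatase that makes diacylglycerol and also acts in the nucleus, was at 2635, 1471, 1989, 4117 and 2195 in the control libraries and 6021, 4095, 7872, 8672 and 5118 in the Mdm2 ASO libraries, with control replicate 4 just above the lowest Mdm2 ASO library. It rose with a log2 fold change of 1.39 (adjusted p = 0.00275), and Dgat1, which adds the last fatty acid, with 0.35 (adjusted p = 0.012), while Agpat2, an earlier acyltransferase, fell with a log2 fold change of -0.61 (adjusted p = 0.00598). Fasn and Scd1, of fatty acid synthesis, did not pass (log2 fold changes -0.11 and 0.45, adjusted p = 0.67 and 0.536). Of 49 tested PPAR alpha targets and oxidation genes 4 fell and 1 rose (median -0.26), beside 6.86% and 6.12% of all tested genes. The count of falls was 12 without control replicate 5, 8 without control replicate 3 and 1 without control replicate 2. Acot2, a mitochondrial thioesterase, fell from 1669 ± 440.5 to 665 ± 165 in mean count (log2 fold change -1.33 ± 0.20 SE, adjusted p = 0.00135) and Etfb, an electron carrier of beta oxidation, rose with a log2 fold change of 0.60 (adjusted p = 0.0052). Ppara and Cpt1a, the receptor and the carnitine transferase, did not pass (log2 fold changes -0.34 and -0.24, adjusted p = 0.178 and 0.251).

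Abcg5 and Abcg8 of sterol export rose. Abcg5, which with Abcg8 pumps cholesterol into bile, was at 2422, 1886, 1279, 1906 and 2644 in the control libraries and 3586, 4268, 5338, 4679.9 and 3632 in the Mdm2 ASO libraries. Abcg8 was at 2140.3, 1873, 938, 1822 and 1801 in the control libraries and 3046, 2578, 3117, 3359.9 and 2431 in the Mdm2 ASO libraries. Control replicate 3 was lowest for both, and the groups did not overlap. Abcg5 rose with a log2 fold change of 1.11 (adjusted p = 0.00134) and Abcg8 with 0.80 (adjusted p = 0.011), and Scarb1, the receptor that takes up cholesterol from HDL, fell with a log2 fold change of -0.64 (adjusted p = 0.00626). Ces3b, a lipase of the endoplasmic reticulum, rose with a log2 fold change of 1.39 (adjusted p = 0.00269). These belong to a list of 38 lipoprotein and efflux genes of which 6 rose and 3 fell (median -0.07); without control replicate 2 the rises were 3, and the falls were 1 without control replicates 1, 2 or 4 or Mdm2 ASO replicates 6 or 8. Insig2, which binds the sterol sensor SCAP, fell with a log2 fold change of -0.88 (adjusted p = 0.00472), the single call among 28 cholesterol synthesis and uptake genes, of which 2 fell without control replicates 3 or 5 and 1 rose without control replicate 2. Of 33 bile acid genes 2 rose and 3 fell (median -0.13): Akr1d1 and Cyp2c70, which modify the sterol ring, fell with log2 fold changes of -0.47 (adjusted p = 0.00557) and -0.60 (adjusted p = 0.0128), and Cyp7a1, the rate-limiting enzyme of bile acid synthesis, had a difference of 0.01 (adjusted p = 0.993). The bile acid rises were 1 without control replicates 2 or 4 or Mdm2 ASO replicates 7 or 8.

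Choline and one-carbon genes bear on a diet that lacks choline. Of 40 tested genes 4 rose and 5 fell (median -0.02), beside 6.12% and 6.86% of all tested genes. Of these calls, 3 falls and all 4 rises passed in every leave-one-out fit (3 falls without control replicate 2 or Mdm2 ASO replicates 6, 7 or 8). Pcyt1a, the rate-limiting enzyme of phosphatidylcholine synthesis from choline, was at 843, 1131, 591, 947 and 652 in the control libraries and 414, 408, 399, 579 and 424 in the Mdm2 ASO libraries. Gpcpd1, which splits glycerophosphocholine and so frees choline, was at 4339.6, 2217, 1349, 2716 and 2935 in the control libraries and 4861, 5075, 7497, 10069 and 5583 in the Mdm2 ASO libraries. Nnmt, which spends methyl groups on nicotinamide, was at 3312, 2249, 2556, 3699 and 3389 in the control libraries and 6375, 8447, 7811, 5119 and 6606 in the Mdm2 ASO libraries. In all of these genes the groups did not overlap, with Pcyt1a lower and the others higher on the Mdm2 ASO. The log2 fold changes were -0.88 (adjusted p = 0.00421), 1.33 (adjusted p = 0.00541) and 1.18 (adjusted p = 4.4e-04). Etnk2, an ethanolamine kinase, rose with a log2 fold change of 0.86 (adjusted p = 0.00896) and Gamt, the methyltransferase of creatine synthesis, with 0.46 (adjusted p = 0.00929). Pemt, which makes phosphatidylcholine by methylation, Chka, the choline kinase, and Bhmt, which uses betaine, did not pass (log2 fold changes 0.10, -0.55 and -0.37, adjusted p = 0.465, 0.168 and 0.177).

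Genes of heme and drug metabolism moved in both directions. Of 30 tested genes of iron, heme and retinoid handling 2 rose and 6 fell (median -0.07), and of these 2 rises and 5 falls passed in every leave-one-out fit. The rises were Alas1 and Cyp26a1, and Cp, Hpx and Hmox1 were among the falls. Alas1, the rate-limiting enzyme of heme synthesis, was at 14948, 11097, 12944, 13686 and 21439 in the control libraries and 25311, 27659, 33778, 33348 and 24157 in the Mdm2 ASO libraries. Por, the reductase that feeds electrons to cytochromes P450, was at 9042, 7594, 7457, 10526 and 7843 in the control libraries and 16051, 13319, 11764, 16583 and 16393 in the Mdm2 ASO libraries. Both were higher in every Mdm2 ASO library than in any control, with log2 fold changes of 0.98 (adjusted p = 0.00181) and 0.80 (adjusted p = 0.00137). Cyp2a5 rose with a log2 fold change of 1.41 (adjusted p = 0.00475) and Cyp26a1, which degrades retinoic acid, with 1.69 (adjusted p = 0.00153). In the list of 49 xenobiotic genes 7 rose and 6 fell (median 0.13). The falls were 2 without control replicates 1 or 4 or Mdm2 ASO replicates 7 or 8 and 3 without control replicate 2. In the list of 33 NRF2 and glutathione genes 1 rose and 4 fell (median -0.04). The rises were 0 without control replicate 4 or Mdm2 ASO replicate 8, 2 without control replicate 1 or Mdm2 ASO replicates 7 or 10, and 3 without control replicate 5. Hmox1, heme oxygenase 1, fell with a log2 fold change of -0.76 (adjusted p = 0.0181) and Gstm3, a glutathione transferase, with -1.03 (adjusted p = 0.0113). Cyp2a5 and Gstm3 belong to families with closely similar copies, and their counts are uncertain to that extent.

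Clock genes moved in both directions. Of 22 tested genes 9 rose and 3 fell (median 0.53), of which 6 rises and 1 fall passed in every leave-one-out fit. The falls were 1 without control replicates 1, 2, 3 or 4 or Mdm2 ASO replicates 7, 8 or 9. Ciart, a repressor of the clock whose E-boxes are printed above, was at 463, 96.2, 135, 277 and 478 in the control libraries and 579, 1447, 1595, 1886 and 1509 in the Mdm2 ASO libraries. Dbp, a clock-controlled transcription factor, was at 1373, 971, 673, 1673 and 1517 in the control libraries and 1836, 4263, 3169.9, 3968 and 2835 in the Mdm2 ASO libraries. Bmal1, the activator that opposes them in phase, was at 286, 339, 308, 256 and 237 in the control libraries and 256, 90.0, 124, 80.4 and 176 in the Mdm2 ASO libraries. Mdm2 ASO replicate 6 lay just beyond the controls for Ciart and Dbp and among them for Bmal1, while the other 4 Mdm2 ASO libraries were well apart. Ciart rose with a log2 fold change of 2.44 (adjusted p = 0.0025) and Dbp with 1.39 (adjusted p = 0.00326), and Bmal1 fell with a log2 fold change of -1.10 (adjusted p = 0.0148). Per3 and Tef rose with log2 fold changes of 1.49 (adjusted p = 0.00878) and 1.00 (adjusted p = 0.00126), and Nr1d2, a nuclear receptor of the clock, rose with a log2 fold change of 0.52 (adjusted p = 0.0139). Nr1d1, the relative of Nr1d2, had the opposite sign without passing (log2 fold change -0.40, adjusted p = 0.146). The hour at which each mouse was sampled is not given in the sources used here, and its part in the clock results was not tested.

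Male-biased and urinary protein genes were among the largest rises. Of 34 tested genes of the list of sex-biased and major urinary protein genes 12 rose and 1 fell (median 0.31). There were 3 falls without control replicate 3 and 2 without Mdm2 ASO replicate 6. The list was counted whole, so these counts are not a share of male-biased genes. Hsd3b5, a steroid reductase of male mouse liver, was at 45.1, 40.7, 32.1, 10.5 and 125 in the control libraries and 841, 876, 649.6, 634 and 183 in the Mdm2 ASO libraries. Mup21, a major urinary protein, was at 1594, 1691, 1292, 1855 and 2503 in the control libraries and 9136, 8830.0, 9842, 6258 and 4435 in the Mdm2 ASO libraries. In both, replicate 10 was the lowest of the Mdm2 ASO libraries and replicate 5 the highest of the controls, without overlap. Hsd3b5 rose from 50.7 ± 43.7 to 637 ± 276 on average (log2 fold change 3.87 ± 0.54 SE, adjusted p = 7.2e-04) and Mup21 with 2.08 (adjusted p = 9.2e-05). Slco1a1, an organic anion carrier of male liver, rose with a log2 fold change of 1.10 (adjusted p = 0.00179), and Mup3 with 1.00 (adjusted p = 0.015). Cyp17a1, a steroid hydroxylase, fell with a log2 fold change of -1.09 (adjusted p = 0.0033). Mup20 did not pass (log2 fold change 0.13, adjusted p = 0.72). Many Mup genes are near-identical copies, and reads of such copies cannot be assigned to single members with certainty. Igf1, a target of growth hormone, did not pass (log2 fold change 0.08, adjusted p = 0.64).

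**Figure D4:**
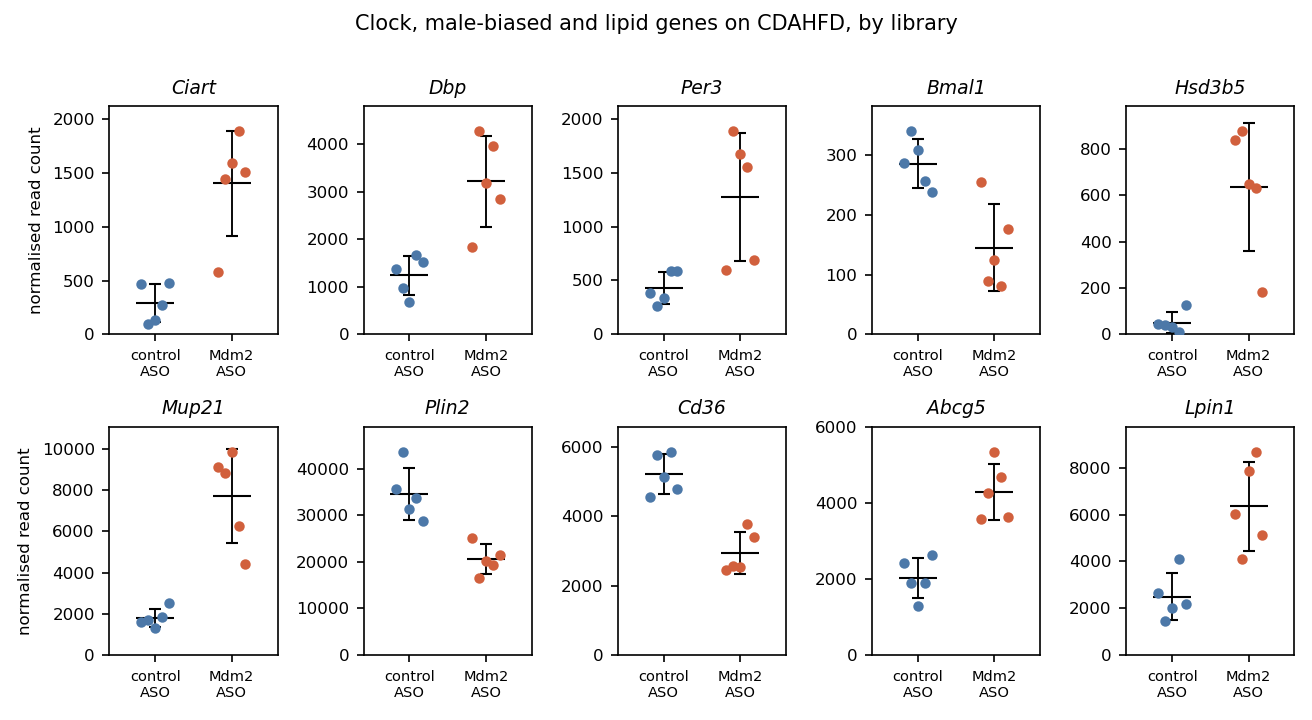
Normalised read counts (vertical axis, from 0) of clock, male-biased and lipid genes in each library of the control ASO (blue) and Mdm2 ASO (orange) groups on CDAHFD, with the group mean and SD in black (n = 5 each). Ciart, Dbp, Hsd3b5, Mup21, Abcg5 and Lpin1 lie higher and Bmal1, Plin2 and Cd36 lower on the Mdm2 ASO, and in the clock genes 1 Mdm2 ASO library lies close to the controls.

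Mitochondrial genes moved in both directions. Of 46 nuclear genes of the respiratory chain 12 rose and 1 fell (median 0.14), but the rises were 4 without control replicate 2, 6 without control replicate 4, 6 without Mdm2 ASO replicate 7 and 5 without Mdm2 ASO replicate 8, and 4 rises passed in every leave-one-out fit. Ndufa5, a subunit of complex I, rose with a log2 fold change of 0.55 (adjusted p = 0.00366) and Cox5b, of complex IV, with 0.38 (adjusted p = 0.00572). Uqcrc2, a core subunit of complex III, was the one that fell (log2 fold change -0.50, adjusted p = 0.0203; lost without control replicate 2 or 4). Of 32 tested genes of mitochondrial dynamics and quality 3 rose and 1 fell (median -0.00339), and 2 fell without control replicate 3. The single fall of that list was Opa1. Opa1, the dynamin-like GTPase that fuses inner membranes, was at 1422, 1647, 1127, 1473 and 1255 in the control libraries and 319, 397, 429.7, 446 and 418 in the Mdm2 ASO libraries. Its groups lay far apart, and its mean fell from 1385 ± 201 to 402 ± 49.6 in the Mdm2 ASO group (log2 fold change -1.78 ± 0.12 SE, adjusted p = 2.9e-06), the smallest p among falls. Immp2l, a subunit of the inner membrane peptidase, was at 645, 591, 633, 668 and 610.4 in the control libraries and 57.6, 134, 120.2, 184 and 225 in the Mdm2 ASO libraries. It was also without overlap (log2 fold change -2.26 ± 0.27 SE, adjusted p = 2.7e-04).

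The falls of smallest p were in genes of several functions. After Opa1 the smallest p-values among the falls belonged to Igsf11, an adhesion molecule, Mdm2, Atp13a3, a polyamine transporter, Mical2, an oxidase of actin, and Xrcc5, the Ku80 subunit of end joining. Igsf11 was at 1498, 1774, 1509, 1455 and 1498 in the control libraries and 843, 638, 686, 724 and 699 in the Mdm2 ASO libraries. Xrcc5 was at 576, 567, 479.8, 485 and 498 in the control libraries and 97.4, 117, 125, 136 and 233 in the Mdm2 ASO libraries. All control values of both lay well above all Mdm2 ASO values. Igsf11 fell with a log2 fold change of -1.11 (adjusted p = 2.3e-05), Xrcc5 with -1.94 (adjusted p = 6.2e-05), Mical2 with -1.37 (adjusted p = 6.2e-05), Cux1, a homeobox factor, with -1.31 (adjusted p = 1.3e-04), Ralgps2, an activator of Ral, with -1.69 (adjusted p = 1.3e-04) and Litaf, an endosomal protein, with -1.09 (adjusted p = 1.9e-04). In GENCODE M21 on GRCm38, the 20 falls of smallest p had a median gene span of 72.8 kb, against 21 kb for all tested genes, 27.8 kb for all genes that fell and 15.6 kb for all that rose. The genes that fell at least 2-fold had a median of 18.8 kb, below that of all tested genes, and the 20 rises of smallest p one of 14.8 kb. Spans over 100 kb were held by 12.3% of tested genes, 12.8% of the falls of at least 2-fold, 20% of those 20 rises and 35% of the 20 falls, among the last Immp2l (931 kb), Cux1 (319 kb) and Mical2 (187 kb).

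The rises of smallest p were also in genes of several functions. Hmcn2, which encodes an extracellular matrix protein of the hemicentin family, was at 338, 334, 385, 404 and 412 in the control libraries and 1772, 1428, 1936, 1253 and 1209 in the Mdm2 ASO libraries. Gria3, a subunit of AMPA glutamate receptors, was at 105, 86.0, 150.5, 85.4 and 154 in the control libraries and 627, 825, 746, 791 and 482 in the Mdm2 ASO libraries. Kyat1, an aminotransferase of kynurenine, was at 1912, 1839, 1627, 2013 and 1663 in the control libraries and 9609, 8030.3, 8657, 5268 and 4634 in the Mdm2 ASO libraries. Each was far above its controls in all 5 Mdm2 ASO libraries. Hmcn2 rose with a log2 fold change of 2.00 (adjusted p = 2.9e-06), Gria3 with 2.59 (adjusted p = 1.3e-05) and Kyat1 with 1.95 (adjusted p = 3.8e-05). Plppr2, a phospholipid phosphatase-related protein, rose with a log2 fold change of 1.27 (adjusted p = 3.9e-05) and Aaas, a nuclear pore protein, with 1.37 (adjusted p = 1.1e-04). Foxq1, a forkhead factor, was at 225, 209, 169.7, 163 and 696 in the control libraries and 1333, 1368, 1746, 1043 and 2176 in the Mdm2 ASO libraries, with control replicate 5 apart from the other controls, and rose with a log2 fold change of 2.59 (adjusted p = 4.1e-04). The low-count genes Pierce1, known as a p53 target, and Nptx1, a neuronal pentraxin, rose from 6.85 ± 3.37 to 63.7 ± 20.9 and from 9.22 ± 6.63 to 62.2 ± 14.6 (SD, n = 5 each; log2 fold changes 3.18 (adjusted p = 2.7e-04) and 3.00 (adjusted p = 0.00153)).

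The response on CDAHFD differed from that on HFHC for many genes. In a contrast of the effects over 17 libraries (HFHC had 4 control and 3 Mdm2 ASO libraries, since 2 deposited HFHC columns were identical and counted once), 3832 of 16333 tested genes (23.5%) passed: 1606 were higher and 2226 lower on CDAHFD. The tables were normalised separately, so effects were taken within each table and levels were not compared. Mdm2 had a log2 fold change of -1.29 on CDAHFD and -1.39 on HFHC, and the difference of 0.10 did not pass (adjusted p = 0.705). The values were 2.83 and 2.76 for Psrc1, -1.78 and -1.45 for Opa1 and -1.11 and -1.09 for Igsf11, again without a difference that passed (0.06, -0.33 and -0.02, adjusted p = 0.951, 0.191 and 0.937).

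Several mitotic and interferon genes fell on CDAHFD and had a log2 fold change above 0 on HFHC, small for Cdc20 and Rsad2. The contrast tests whether the effects differ, and it does not test whether a gene rose on HFHC. Mki67 had a log2 fold change of -1.23 on CDAHFD and 1.62 on HFHC, a difference of -2.85 (adjusted p = 7.8e-05), and Cdc20 one of -2.13 and 0.28, a difference of -2.40 (adjusted p = 0.00268). Rsad2, of the interferon genes, had log2 fold changes of -1.24 and 0.22 (difference -1.47, adjusted p = 9.1e-04). Pmaip1, which did not pass on CDAHFD, differed with -2.38 (adjusted p = 0.00239), with an HFHC effect of 2.20. By this contrast the effect was higher on CDAHFD for Notum, a secreted brake on Wnt signalling (0.65 against -0.81, difference 1.46, adjusted p = 1.0e-05). It was also higher for Gcgr, the glucagon receptor (0.48 against -0.54, difference 1.02, adjusted p = 2.2e-05). The effect was lower on CDAHFD for Stap1, an adaptor of immune receptors (-0.58 against 2.21, difference -2.79, adjusted p = 5.0e-08). It was also lower for Rnf144a, a ubiquitin ligase (-1.61 against 2.02, difference -3.63, adjusted p = 1.5e-07). The clock gene Dbp and the urinary protein gene Mup21 differed by 1.54 and 1.72 (adjusted p = 0.03 and 7.0e-04), and Dbp passed in 12 of 17 leave-one-out fits of this contrast. The statement that named genes passed in all 10 leave-one-out fits concerns the test within CDAHFD, not this contrast.

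**Figure D5:**
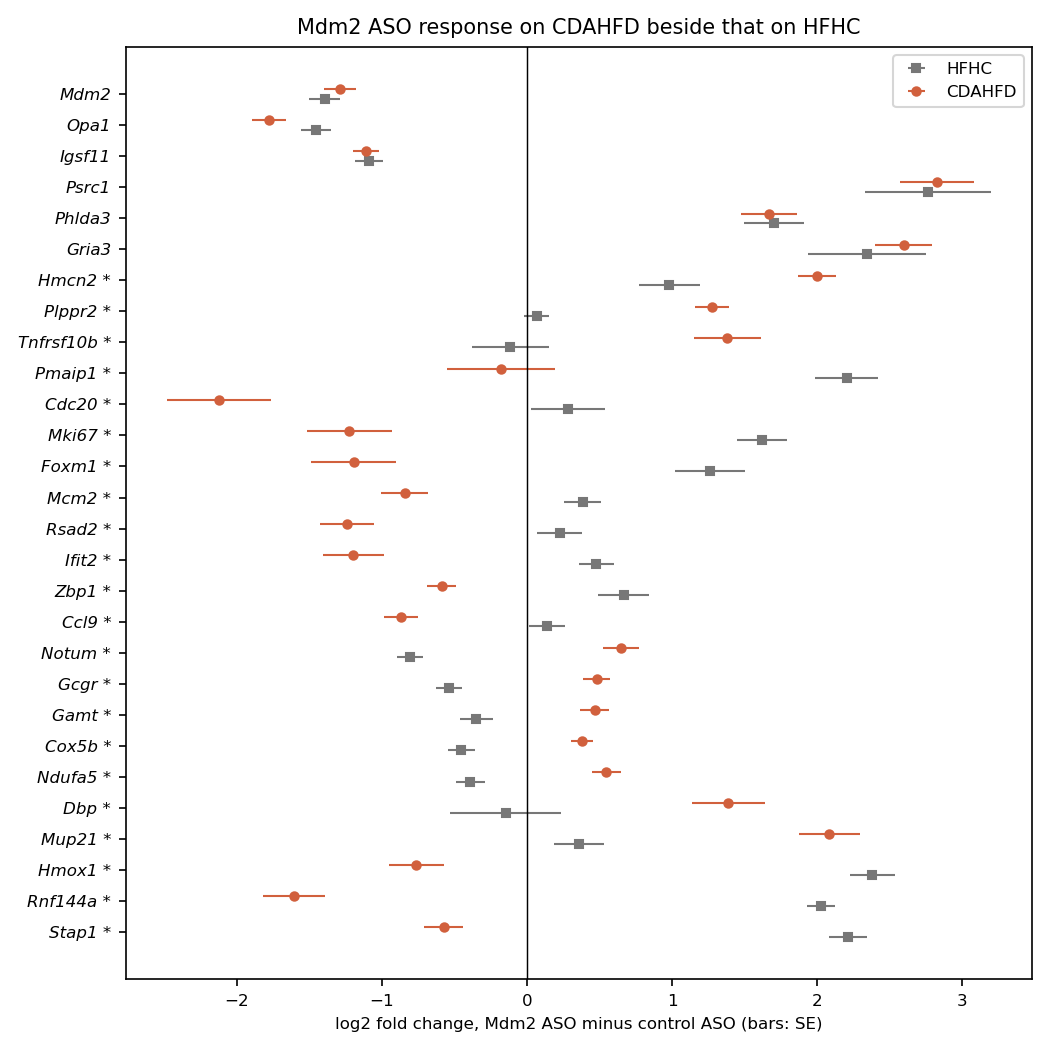
Log2 fold change of Mdm2 ASO over control ASO (horizontal axis, bars are SE) on CDAHFD (orange circles) and on HFHC (grey squares) for named genes; an asterisk marks genes whose difference between diets passed the test. Mdm2, Opa1, Igsf11, Psrc1, Phlda3 and Gria3 lie on the same side of 0 on both diets and did not pass the test of the difference, while Cdc20, Mki67, Foxm1, Mcm2, Rsad2, Ifit2 and Zbp1 lie left of 0 on CDAHFD and right of 0 on HFHC.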

How the data were processed

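Liver RNA (RNeasy kit, strand-specific mRNA libraries, per the labels' protocols) was sequenced, and the submitters' processing notes name STAR 2.7.10b, featureCounts of Subread 2.0.3 and the build GRCm39, with no settings. The deposited values are a signal, read counts per gene normalised by TMM per the deposited table's name, each diet on its own, and 100% of the CDAHFD values returned to whole reads (tolerance 0.001), 22.4 to 31.5 M per library. From these, log2 of the value plus 0.5 was tested with limma 3.58.1 (mean-variance trend) in R 4.3.3 for genes of at least 1 in at least 5 libraries. Recovered counts were tested with edgeR 4.0.16 and DESeq2 1.42.0 as alternatives, and other pseudocounts, filters, scalings and single left-out libraries were tried. The code was tested on simulated data. Fold changes understate the change of low genes.

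The comparison, the gene lists and the rules were chosen with earlier results of these data known. The text names key genes of lists, called list members of smallest p, the largest and the most significant changes, abundant called genes, genes that differ between diets, and members that move against their list; Cdk1, Foxm1, Gadd45g and Gtse1 fall outside that rule and were named after their values were seen. The HFHC table served for the contrast of effects only, and its Mdm2 ASO replicates 6 and 7 were identical and counted once. Replicate numbers are shared across diets but did not pair the samples. Promoters came from RefSeq on GRCm38.p6 and gene spans from GENCODE M21 on GRCm38, matched by name, and no coordinates were moved between builds. Results for some genes are not reported here.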

Additional observations from a re-analysis of the deposited data

Results flagged for a closer look

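In single libraries, 22 normalised counts of named genes stood apart from the other 4 of their group, by a gap of over Dixon's critical value for groups of 5. With 362 sets of 5 values examined, chance at about 1 in 20 gives 18.1. For Mdm2 ASO replicate 10 these were Gpnmb (6121) and Xrcc5 (233). For Mdm2 ASO replicate 6 these were Ifi47 (551.9) and Mdm2 (860.8). For Mdm2 ASO replicate 7 these were Cpt1a (10360), Cyp2c70 (2866) and Pemt (8841). For Mdm2 ASO replicate 8 it was Ifit1 (380.9). For Mdm2 ASO replicate 9 it was Pcyt1a (579.1). For control replicate 1 it was Zmat3 (228.5). For control replicate 2 these were Cp (33590), Igsf11 (1774) and Mical2 (518.8). For control replicate 3 these were Abcg8 (938.5) and Eda2r (102.7). For control replicate 4 these were Nuf2 (92.65) and Rsad2 (804). For control replicate 5 these were Acta2 (272), Cux1 (568.3), Fga (30410), Foxq1 (696.4) and Grn (11030).

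Of 181 named genes, 83 responded differently on CDAHFD and HFHC in the tested contrast of effects (limma, adjusted p under 0.05). Of all tested genes 23.5% passed this contrast. Some genes were named for their small p in this same contrast, so the count of named genes cannot be read against that share. Values in parentheses are the difference of log2 fold changes, CDAHFD minus HFHC. Among genes of cell division the differences were Mki67 (-2.85), Top2a (-2.7), Cdc20 (-2.4), Ccnb1 (-2.74), Ccnb2 (-1.92), Cdk1 (-1.56) and Tpx2 (-2.9). The same sign was found for Prc1 (-2.28), Foxm1 (-2.45), Hmmr (-2.62), Kif4 (-2.93), Nuf2 (-2.89), Ckap2 (-1.6), Mcm2 (-1.23) and Pcna (-0.666). The contrast was also negative for the interferon genes Rsad2 (-1.47), Ifit1 (-1.1), Ifit2 (-1.68), Cmpk2 (-1), Zbp1 (-1.25), Ifi47 (-1.07) and Tgtp1 (-2.11). Chemokine, cytokine and leukocyte genes gave Ccl9 (-1.01), Icam1 (-0.799), Il1b (-2.5), Tnf (-2.68), Stap1 (-2.79), Cd5l (-2.09), Lpl (-1.58) and Grn (-1.03). Platelet genes gave Itga2b (-1.23) and Gp1ba (-3.78), although both rose on CDAHFD. Stress and ligase genes with a negative contrast were Hmox1 (-3.14), Pmaip1 (-2.38) and Rnf144a (-3.63).

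Of p53 targets, the contrast was positive for Pidd1 (0.669), Mgmt (0.642), Ercc5 (0.571), Siva1 (0.453), Pdrg1 (0.659) and Tnfrsf10b (1.5). It was negative for Pmaip1 (-2.38) and Ckap2 (-1.6), which also belong to the p53 target lists. Plasma, bile duct and matrix genes gave Saa1 (1.14), Lbp (-0.565), C4a (1.51), Proc (0.548), Krt19 (2.7) and Timp1 (1.4). The injured hepatocyte gene Ly6d (1.38) had a positive contrast, although it fell on CDAHFD. Lipid and choline genes gave Fasn (0.918), Etfb (0.96), Bscl2 (0.494), Ces3b (1.29), Lipa (-0.565), Pcyt1a (-0.686) and Gamt (0.816). Hepatocyte, steroid and urinary protein genes gave Asgr1 (0.493), Akr1d1 (-0.667), Cyp17a1 (-1.27), Slco1a1 (-2.27), Mup20 (1.78) and Mup21 (1.72). Respiratory, clock and signalling genes gave Cox5b (0.835), Ndufa5 (0.936), ND3 (2.1), Clpp (0.809), Esrra (0.341), Dbp (1.54), Tef (0.663), Nr1d2 (0.586), Notum (1.46) and Gcgr (1.02). Amino acid breakdown and Wnt genes gave Fah (0.512), Ftcd (0.731) and Rnf43 (0.667). The remaining differences were Aaas (0.765), Cux1 (-1.04), Eno3 (0.678), Foxq1 (1.96), Hmcn2 (1.02), Kyat1 (0.805), Mical2 (-0.71), Plppr2 (1.21) and Sqstm1 (0.393).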

How the results depend on the processing

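Leaving out each library in turn gave 1232 (without control replicate 2) to 2283 (without control replicate 3) called genes, with 557 to 1090 that rose and 675 to 1193 that fell. Without Mdm2 ASO replicate 8 there were 1426, of which 629 rose. The cause was not tested. Pseudocounts of 1 and 0.1, no filter or a minimum of 10, quantile, total and median-of-ratios scaling, robust empirical Bayes and edgeR (2186) gave counts within 1.5 times of 2181, and DESeq2 gave the most, 2956. Log2 fold changes of Mdm2 lay between -1.40 and -1.25 over its leave-one-out fits. Of 146 named genes that passed, 139 kept their call in all leave-one-out fits and 144 under all other settings, and none reversed. Group counts in the text that moved by over 1.5 times and by at least 2 calls, with the reported count in parentheses, were as follows. With DESeq2 the rises were 3 for hepatocyte identity (1), 5 for endothelial cells (1), 4 for NRF2 (1) and 7 for pericentral genes (4). The DESeq2 falls were 4 for DNA replication (2), 3 for hepatocyte identity (1), 6 for Fc receptors (2), 7 for complement (2), 8 for fatty acid oxidation (4), 5 for bile acids (3), 9 for choline (5) and 4 for insulin and growth hormone (2). With quantile scaling endothelial rises were 4, and falls were 4 for DNA replication, 3 for hepatocyte identity, 5 for Fc receptors, 5 for complement, 10 for fatty acid oxidation and 5 for lipoproteins (3). With total scaling falls were 5 for complement and 7 for fatty acid oxidation. Without a filter falls were 0 for Fc receptors and 2 for fatty acid synthesis (4), and pericentral rises were 2. With robust empirical Bayes fatty acid oxidation falls were 2. Counts of the difference between diets ran from 3084 to 4029 without single libraries and reached 4401 with quantile scaling. With the replicate block 3033 genes passed, against 3832 without it. Deviations of same-numbered libraries of the 2 diets correlated at -0.0659 to 0.105, so the numbers were not taken to pair the samples. Genes of low count, such as Nptx1 and Pierce1, are limited by depth.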

Other observations

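Beyond the groups above, calls in several lists were few or went in both directions. Of 21 tested genes of MHC class I presentation 4 fell and 0 rose (median -0.12; 1 rose without Mdm2 ASO replicate 7), but 0 fell without control replicate 2, 1 without control replicate 4 or Mdm2 ASO replicate 8, and 2 without Mdm2 ASO replicate 6. Of 14 tested MHC class II genes 0 passed with limma, edgeR or DESeq2, and 1 had an unadjusted limma p under 0.05 (median -0.20; 1 fell without Mdm2 ASO replicate 10). Of 36 tested complement genes 3 rose and 2 fell (median -0.00676), and of 32 coagulation genes 3 rose and 2 fell (median -0.13). The complement falls were 5 without control replicate 3, 1 without Mdm2 ASO replicates 7 or 10, and 0 without control replicates 1, 2 or 4 or Mdm2 ASO replicates 8 or 9. The coagulation falls were 1 without control replicates 2 or 4 or Mdm2 ASO replicates 6, 7 or 8. The rises included C4a, the fourth component of complement (log2 fold change 0.69, adjusted p = 0.015), F7, which encodes factor VII (log2 fold change 0.50, adjusted p = 0.00842), and Proc, protein C (log2 fold change 0.40, adjusted p = 0.0142). C4a has a near-identical copy, and its count is uncertain to that extent.

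Hpd, Fah and Ftcd, which break down amino acids, are named here because they are abundant and passed. No list made for such genes was examined. The periportal and urea cycle list, counted below, holds some genes of amino acid breakdown and moved in both directions. Hpd, which acts on hydroxyphenylpyruvate in tyrosine breakdown, was at 40947, 35532, 38738, 48889.8 and 30918 in the control libraries and 65108, 56852, 62537, 52355 and 59112 in the Mdm2 ASO libraries. Fah, the last enzyme of that pathway, was at 16622, 14081, 13329.6, 15872 and 13719 in the control libraries and 19618, 23009.6, 19775, 18114 and 18978 in the Mdm2 ASO libraries. Hpd and Fah rose with log2 fold changes of 0.61 (adjusted p = 0.00992) and 0.44 (adjusted p = 0.0117), and Ftcd, of histidine breakdown, rose with a log2 fold change of 0.73 (adjusted p = 6.8e-04). Ttpa, which loads vitamin E into lipoproteins, fell with a log2 fold change of -0.40 (adjusted p = 0.0165). Of 24 pericentral genes 4 rose and 1 fell (median 0.22), and of 27 periportal and urea cycle genes 5 rose and 5 fell (median 0.04). The pericentral rises were 2 without control replicates 3 or 5 or Mdm2 ASO replicates 7 or 9. The periportal rises were 2 without control replicate 2 and 3 without Mdm2 ASO replicates 7 or 8, and the periportal falls were 2 without control replicate 2. The pericentral fall was lost without control replicates 2 or 4. Rnf43, a ubiquitin ligase that limits Wnt receptors, rose with a log2 fold change of 0.69 (adjusted p = 0.00213) beside Notum, which is also a target and brake of Wnt signalling.

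Insulin and growth hormone signalling genes gave few calls, 1 rise and 2 falls of 31 tested (median 0.04). The rises were 0 without control replicates 2 or 4 or Mdm2 ASO replicate 8 and 2 without control replicate 1 or Mdm2 ASO replicates 6 or 10. The falls were 4 without Mdm2 ASO replicate 10 and 1 without control replicates 2 or 3 or Mdm2 ASO replicates 6, 7 or 8. Stat5a, a transducer of growth hormone, fell with a log2 fold change of -0.47 (adjusted p = 0.0122). In the mitochondrially encoded list 1 of 13 genes, the complex I subunit ND3, rose (log2 fold change 1.16, adjusted p = 0.00369), and 3 rose without Mdm2 ASO replicate 6. Esrra, a nuclear receptor of mitochondrial genes, and Clpp, a matrix protease, rose with log2 fold changes of 0.50 (adjusted p = 0.00186) and 0.42 (adjusted p = 0.0111).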
